A study of Mus musculus with 48 samples.

Results

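The genes described here are named for the proteins of the cytosolic ribosome, and 5 of them are paralogs. They were taken by symbol from the array annotation. A symbol was Rps or Rpl with a number, then at most a single letter (a, x, y or l) and further digits. Rplp0, Rplp1, Rplp2 and Rpsa were added and the Rps6k kinases left out. Rpl36al has a second letter, so it was not a member and is counted with other genes below. Of 62 such genes with a named probe, 55 had a probe detected above background (p under 0.01) on 3 or more of the 48 arrays, and the probe with the highest mean signal stood for each gene. These 55 are set against the 10739 genes that passed the same filter. Of the other 7, Rpl14, Rpl17, Rpl3l, Rpl6, Rps20 and Rps23 were detected on 0 arrays and Rpsa on 1. A probe at background does not show that its gene was not expressed. The members nearest to the threshold of 3 arrays were Rps15a, detected on 19, and Rpl39l, on 33, while the other 53 were detected on all 48. The 55 divide into 20 genes of the small subunit, 27 of the large subunit, 3 of the stalk of the large subunit (Rplp0, Rplp1 and Rplp2) and 5 paralogs of these genes (Rps4l, Rps27l, Rpl7l1, Rpl22l1 and Rpl39l).

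A ribosome is built from ribosomal RNA and one copy of most of these proteins, so that the proteins are needed in matched amounts, and their mRNAs are among the most abundant of dividing and secreting cells such as osteoblasts. In mammals many of these mRNAs begin with a run of pyrimidines, the terminal oligopyrimidine (TOP) tract, through which growth signals control their translation more than their amount. Assembly of the subunits in the nucleolus needs a separate and larger set of factors, many of which are targets of the transcription factor Myc.

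Gene expression was measured on bead arrays in primary osteoblasts of the mouse skull, grown from mice lacking the oncostatin M receptor gene Osmr (KO) and from wild-type mice (WT), both of C57BL/6 background and cousin-bred litters. Frozen cells were thawed, differentiated for 17 days and exposed for 1 h or 6 h to 10 ng/ml of a cytokine or to none (control). The cytokines were mOSM and hOSM, the mouse and human forms of oncostatin M, and mLIF, as the titles name the leukemia inhibitory factor. That made 16 groups of 3 arrays on 8 beadchips, from 3 KO and 3 WT cultures that each gave all 8 treatments. The ligands and genotypes were chosen to separate signals of the LIF receptor, which on mouse cells also takes hOSM according to the design text, from those of the OSM receptor. The LIF is called mouse in the titles and human in the treatment protocol, and the cells are labelled osteocyte in one field and osteoblast in another. The design text speaks of 3 thawing occasions, while the labels give 2 days, with replicate 3 of both genotypes on the second. Nothing states that the cultures came from separate animals, so every p-value rests on the spread among these arrays, which may be technical.

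Osmr had log2 signals of 6.28 to 8.75 on the 24 KO arrays and 9.51 to 12.23 on the 24 WT arrays, and the genotypes did not overlap. All 9 osteoblast markers with a probe were detected. KO replicate 3 stood apart from the other cultures: with the group means removed, its mean on the first principal component (47% of the variance) was 53.1, against −26.5 to 9.12 for the other 5 cultures. Array medians of the raw signal ran from 116 to 170. In a bulk sample, fewer cells of a type and less RNA per cell cannot be told apart.

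The DNA around the annotated start was searched for the pyrimidine tract that many of these mRNAs begin with. RefSeq promoter windows of the GRCm38.p6 build were found for 46 of the 55 genes by symbol (55 windows in all, with 250 bases before the start and 50 after). Shown are the 30 bases around the start, 15 on each side and 5′ to 3′ on the gene's own strand, for the genes called with mOSM below that have a window and for 5 genes with the highest signals that have one. Capitals mark runs of at least 6 pyrimidines (C or T).
Rps15a (chr7:118116133-118116162, minus strand): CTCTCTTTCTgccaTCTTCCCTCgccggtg
Rpl7a (chr2:26910792-26910821, plus strand): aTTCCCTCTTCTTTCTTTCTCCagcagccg
Rpl7l1 (chr17:46782642-46782671, minus strand): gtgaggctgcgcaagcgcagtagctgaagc
Rps4x (chrX:102189377-102189406, minus strand): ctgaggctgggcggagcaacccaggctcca
Rps2 (chr17:24720048-24720077, plus strand): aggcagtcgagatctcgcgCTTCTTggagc
Rpl41 (chr10:128549154-128549183, minus strand): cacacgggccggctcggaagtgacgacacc
Rpl38 (chr11:114668565-114668594, plus strand): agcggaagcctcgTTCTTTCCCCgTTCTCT
Rps12 (chr10:23787195-23787224, minus strand): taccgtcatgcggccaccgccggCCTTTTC
Rpl9 (chr5:65391417-65391446, minus strand): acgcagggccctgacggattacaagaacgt
Among the 4 called genes, the windows of Rps15a and Rpl7a hold long pyrimidine runs across or beside the annotated start. Those of the paralog Rpl7l1 and of Rps4x hold no run of at least 6. The start used in these cells was not measured, so a window without a run does not show that the mRNA lacks the tract. A run of at least 8 pyrimidines in these 30 bases was present in 38.2% of the 55 windows, against 12% of all 32851 windows and 7.41% of the 54 windows of genes for ribosome assembly. The start base was C and was followed by at least 4 more pyrimidines in 14.5% of the windows, against 2.51% of all windows. Over the whole 300-base windows, CCGGAAG, the core letters that ETS factors bind, occurred on either strand in 40% against 8.86% of all windows, and in 31.5% of those of assembly genes and 26.5% of those of translation factors. CACGTG, the letters bound by Myc and its partners, occurred on either strand in 12.7% against 7.15% of all windows, and in 18.5% and 32.4% of those of assembly genes and translation factors. TTCNNNGAA, the letters bound by STAT factors, occurred in 5.45% against 8.3%. CACGTG cannot overlap CCGGAAG, while TTCNNNGAA can, and a match describes the letters only.

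The typical ribosomal protein gene varied less between groups than the typical gene on these arrays. Rps29, of the small subunit, had group means between 14.44 and 14.57 on the log2 scale over all 16 groups, and Rpl41, of the large subunit, between 14.48 and 14.6. The range of the 16 group means had a median of 0.27 over the 55 genes, against 0.77 over all genes tested, and the residual SD within groups a median of 0.13 against 0.31. Most of the probes are bright: 33 had a mean of 13 or above, with a median residual SD of 0.12, against 0.17 for the 160 other genes in that range. Quantile normalization gives the brightest probe of every array the same value, here 14.8, and the raw signal of the brightest probe ran from 19980 to 38016 between arrays. The widest ranges of group means belonged to Rps15a (1.53), the paralogs Rpl39l (1.19) and Rps4l (1), Rpl7a (0.76) and Rpl7l1 (0.73).

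**Figure D1:**
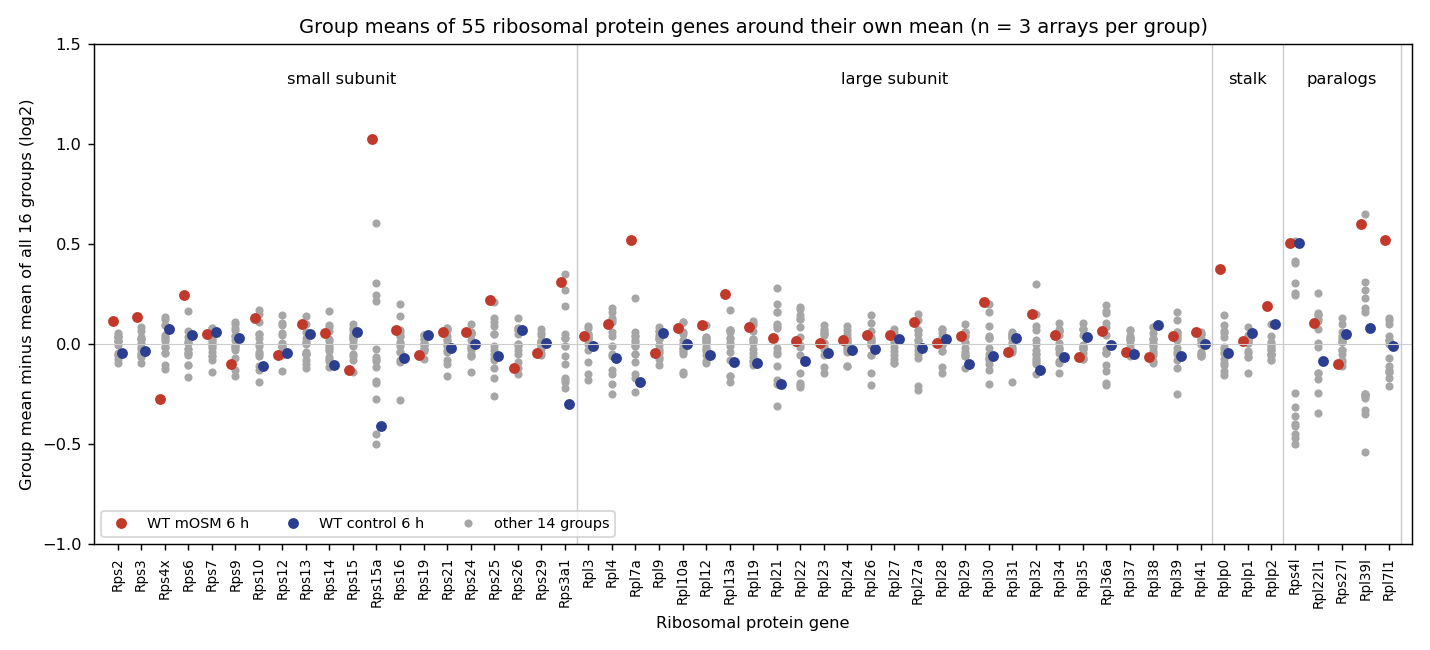
Each point is the mean of 1 of the 16 groups (n = 3 arrays) for 1 of the 55 genes, minus that gene's mean over all groups, on the log2 scale (y axis), with the genes sorted by subunit along the x axis. WT mOSM at 6 h (red) and WT control at 6 h (blue) lie close together for most genes, and Rps15a, Rpl7a, Rpl7l1, Rpl30 and Rps4x are the 5 that passed between them.

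After 6 h of mOSM in WT cultures, 4 ribosomal protein genes rose and 1 fell. Rps15a, of the small subunit, Rpl7a and Rpl30, of the large subunit, and Rpl7l1, a paralog of Rpl7, were higher, and Rps4x, the X-linked small subunit gene, was lower. The probes of the 4 that rose had mean signals of 5.66, 10.71, 11.14 and 9.57 in that order, against a median of 13.25 over the 55. The other 50 did not pass limma's adjusted p under 0.05. Over all 10739 genes 27.5% passed, 1283 higher and 1673 lower, or 11.9% higher and 15.6% lower, so that 5 of 55 is a smaller share than that of all genes.

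Rps15a had log2 signals of 6.99, 6.89 and 6.17 on WT mOSM arrays at 6 h, against 5.22, 5.39 and 5.14 on WT control arrays. The groups did not overlap, and no control array was above background. With each control array set to the lowest signal of a probe above background where its own was lower, the estimated rise was 2.07-fold. That estimate takes no account of the spread among arrays, so it is not a lower bound. The fitted difference was 1.43 ± 0.44 SE (n = 3 per group, adjusted p = 0.014), with a confidence interval of 0.53 to 2.33 on the log2 scale. Rpl7a had 11.07, 11.44 and 11.17 with mOSM, against 10.48, 10.66 and 10.42 in controls. All 3 mOSM values lay above all 3 control values, and the difference was 0.71 ± 0.21 (1.63-fold, adjusted p = 0.011). Rpl7l1 had 10.06, 10.09 and 10.12 with mOSM, against 9.47, 9.57 and 9.63 in controls. These groups also lay apart, by 0.53 ± 0.16 (1.45-fold, adjusted p = 0.014).

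Rpl30, a large subunit protein, had 11.34, 11.34 and 11.37 with mOSM, against 10.96, 11.16 and 11.11 in controls, a rise of 0.27 ± 0.10 (1.21-fold, adjusted p = 0.039). Rps4x was the 1 gene that fell, with 13.83, 13.75 and 13.65 with mOSM, against 14.21, 14.11 and 13.98 in controls (difference −0.35 ± 0.12, adjusted p = 0.022). The groups did not overlap for either gene. Both differences are small beside those of the genes for ribosome assembly described below.

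With the culture (genotype and replicate) as a block, 7 of the 55 genes passed against 45.2% of all genes. Added were Rpl13a, a large subunit protein also known to silence the translation of inflammatory mRNAs, and Rplp0, the base of the stalk on which Rplp1 and Rplp2 sit. Rpl13a had 10.24, 10.19 and 10.13 with mOSM, against 10.13, 9.75 and 9.65 in controls (0.34 ± 0.15, adjusted p = 0.084, or 0.027 with the block). Rplp0 had 8.95, 8.67 and 8.55 with mOSM, against 8.55, 8.32 and 8.04 in controls (0.42 ± 0.22, adjusted p = 0.15, or 0.025 with the block). In both genes control replicate 1 was as high as the lowest mOSM array.

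**Figure D2:**
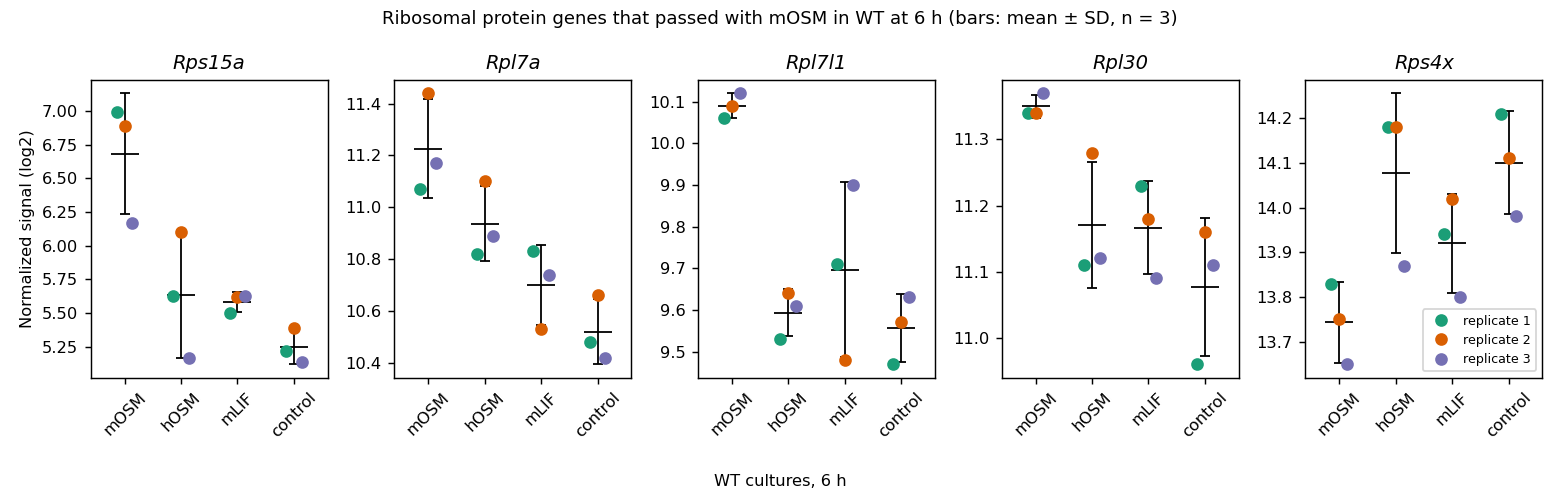
Normalized log2 signal (y axis, own range in each panel) of the 5 genes that passed with mOSM in WT cultures at 6 h, for mOSM, hOSM, mLIF and control arrays (x axis). Points are single arrays coloured by replicate and bars are mean ± SD (n = 3). In every panel the 3 mOSM points lie on one side of the 3 control points, but the genes were picked because they passed. Among the 55 genes 8 lay wholly above and 3 wholly below their controls, and some of these did not pass. No such share is given for all genes.

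The remaining genes did not pass, and most differed little from their controls. Over the 55 genes the median difference was 0.08, against −0.08 over all genes, with a median of 0.12, −0.02 and 0.11 in replicates 1, 2 and 3. In 17 genes the matched difference was positive in all 3 cultures and in 8 negative, against 28.9% and 40.5% of all genes. The 95% confidence interval lay within 0.5 of 0 on the log2 scale (1.41-fold) for 38 of the 55 genes and reached further for the other 17. Rpl3, a core protein of the large subunit near its catalytic centre, differed by 0.04 (interval −0.17 to 0.25). Rplp1 read 14.35 to 14.8 over all 48 arrays and Rps2 14.36 to 14.8, which reaches the highest value that quantile normalization gives, so that their intervals do not bound a rise. Rps6, the substrate of the S6 kinases, had 12.9, 12.76 and 12.61 with mOSM, against 12.67, 12.56 and 12.45 in controls, which overlap (0.20 ± 0.11, adjusted p = 0.21). Rps3, at the mRNA entry of the small subunit, differed by 0.18 ± 0.12 (adjusted p = 0.28), Rps19 by −0.10 ± 0.12 (adjusted p = 0.58) and Rplp2 by 0.09 ± 0.14 (adjusted p = 0.72).

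By subunit, 1 of 20 small subunit genes rose and 1 fell (median difference 0.07). Of 27 large subunit genes 2 rose (median 0.08), of 3 stalk genes 0 passed, and of 5 paralogs 1 rose. Over all genes 11.9% rose and 15.6% fell. The classes are too small for these counts to set one apart from another. The paralogs had the wider errors. Rpl39l, a paralog of Rpl39 known from testis, was above background on 2 of 3 arrays in each group and differed by 0.52 ± 0.45 (adjusted p = 0.44). Rpl22l1, the paralog of Rpl22, differed by 0.18 ± 0.35 and Rps27l, a p53 target, by −0.16 ± 0.17 (adjusted p = 0.76 and 0.56).

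The same count was made among genes of similar signal. Of the 33 ribosomal protein genes with a mean of 13 or above 1 passed (3.03%, Rps4x), against 43 of 160 other genes (26.9%), and the median size of the difference was 0.09 against 0.3. With means of 12 to 13, 0 of 7 passed, against 28.9% of all genes there. At 10 to 12 it was 2 of 6 against 36.4% (median size 0.27 against 0.36), and at 8 to 10 it was 1 of 5 against 33.7% (0.34 against 0.4). From 6 to 8 it was 0 of 2 against 28.2%, and under 6 it was 1 of 2 against 11.9%. The low share is thus seen among the brighter probes, and the lower ranges hold few members. Whether the shares differ was not tested, since the genes of a ribosome are not independent. Summed signals of 5 adipocyte markers were 6280 to 15400 on WT mOSM arrays and 15600 to 29600 on WT control arrays at 6 h, and the groups did not overlap. Those of 6 chondrocyte markers were 13700 to 23100 with mOSM and 21500 to 33800 in controls, and those of 7 of 10 macrophage and osteoclast markers 6840 to 22300 and 7540 to 26900, with Ptprc, Itgam and Acp5 detected on 0 arrays. The 2 muscle markers of 4 and 3 endothelial markers of 5 that were detected summed to at most 645 in either group, with Ckm, Myog, Cdh5 and Pecam1 detected on 0 arrays. Their part in the differences was not tested.

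Leaving out single arrays or whole WT cultures gave 0 to 4 such genes, with every one of the 5 differences keeping its sign. Under median scaling in place of quantile normalization, Rps15a alone remained (adjusted p = 0.027). The other differences were 0.68 for Rpl7a, 0.45 for Rpl7l1, 0.24 for Rpl30 and −0.25 for Rps4x (adjusted p = 0.06, 0.097, 0.28 and 0.3), and the median of the 55 genes was 0.11 against −0.19 for all genes. With the beadchip as a block 2 passed, and on the 1 beadchip that held both groups the difference between 2 mOSM arrays and 1 control array was 0.59 for Rpl7a, 0.5 for Rpl7l1, 0.18 for Rpl30 and −0.32 for Rps4x.

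In KO cultures, 6 h of mOSM moved none of the 55 genes past the threshold in limma, with 0 at an unadjusted p under 0.05 as well, and over all genes 0% passed (201 genes at an unadjusted p under 0.05 and 4 with the culture as a block). The median difference was 0.03. Rps15a had 5.88, 5.33 and 6.48 on KO mOSM arrays, against 4.82, 5.3 and 6.02 on KO control arrays, which overlap (0.52 ± 0.44, above background on 2 and 1 of 3 arrays). Rpl7a had 10.56, 10.6 and 10.82 with mOSM, against 10.24, 10.48 and 10.69 in KO controls (0.19 ± 0.21), and Rpl7l1 had 9.28, 9.11 and 10, against 9.59, 9.63 and 9.6 (−0.14 ± 0.16).

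The difference of the mOSM effect between the genotypes (KO minus WT) passed for 0 of the 55 genes, with 2 at an unadjusted p under 0.05, against 9.7% of all genes. It was −0.68 ± 0.23 for Rpl7l1 (adjusted p = 0.06, or 0.0094 with the culture as a block) and −0.56 ± 0.21 for Rpl13a (adjusted p = 0.086, or 0.018 with the block). Rps15a, which was above background on no WT control array and 1 KO control array, has no exact difference here (adjusted p = 0.44, or 0.038 with the block). The difference was, for Rpl7a, −0.51 ± 0.30 (adjusted p = 0.33) and for Rps4x 0.32 ± 0.17 (adjusted p = 0.27). With the block 3 of the 55 genes passed, all lower in KO, against 26.3% of all genes. The intervals of 27 genes lay within 0.5 of 0, so that for the others a difference of that size between genotypes was not excluded.

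Neither hOSM nor mLIF moved a ribosomal protein gene past the threshold, in either genotype or at either time. Together with mOSM at 1 h and in KO, these 11 ligand effects had 0 of 55 genes passing each, between 0 and 3 at an unadjusted p under 0.05, and medians between −0.07 and 0.04. Over all genes the share passing in WT was 0.745% with mOSM, 0.466% with hOSM and 0.624% with mLIF at 1 h, and 0.661% with hOSM and 0.466% with mLIF at 6 h. In KO it was 0.00931%, 0.4% and 0.428% at 1 h and 0%, 0.829% and 0.922% at 6 h, in the same order of ligands. A count of 0 in 55 is near these shares. The intervals of 41 to 46 genes lay within 0.5 of 0. With the culture as a block 1 gene passed in 1 of the 11, Rps15a with hOSM in KO at 6 h (above background on 3 hOSM arrays and 1 control array of 3, 0.88 ± 0.44, adjusted p = 0.68, or 0.017 with the block, against 6.99% of all genes).

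Set directly against each other at 6 h in WT cultures, mOSM exceeded hOSM for 1 gene, Rpl7l1 (0.49 ± 0.16, adjusted p = 0.036), against 16% of all genes. Rpl7l1 had 10.06, 10.09 and 10.12 with mOSM, against 9.53, 9.64 and 9.61 with hOSM. mOSM exceeded mLIF for 1 gene, Rpl13a (0.44 ± 0.15, adjusted p = 0.037), against 15.5% of all genes. Rpl13a had 10.24, 10.19 and 10.13 with mOSM, against 9.83, 9.65 and 9.75 with mLIF, with no overlap in either pair. With the culture as a block 3 and 5 genes passed, against 33.1% and 31.5% of all genes, and under median scaling 0 and 0. Rps4x had −0.33 ± 0.12 for mOSM against hOSM (adjusted p = 0.053) and −0.17 ± 0.12 for mOSM against mLIF (adjusted p = 0.38), and Rps15a, above background on 2 hOSM arrays and 1 mLIF array of 3, had 1.05 ± 0.44 and 1.10 ± 0.44 (adjusted p = 0.11 and 0.092).

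At 1 h of mOSM in WT cultures most of the 55 genes lay slightly below their controls, with none past the threshold. The difference was negative for 40 of 55 genes, against 5495 of all 10739 genes. The median was −0.07, against 0 for all genes. By replicate the medians were −0.2, 0.01 and −0.09, so that replicate 2 showed no such shift. This direction depends on the scaling, since median scaling gave 0.03 against 0.01. Rpl39, of the large subunit, had 13.34, 13.68 and 13.48 on mOSM arrays, against 13.8, 13.7 and 13.9 on control arrays (−0.30 ± 0.12, adjusted p = 0.82). Rps16, of the small subunit, had 12.8, 12.97 and 12.92, against 13.14, 13.17 and 13.24 (−0.29 ± 0.12, adjusted p = 0.87). Neither pair of groups overlapped, but neither gene passed over all genes, of which 0.745% did.

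The mOSM effect in WT was higher at 6 h than at 1 h for Rpl30, the 1 gene of the 55 that passed in this comparison, against 13% of all genes. At 1 h Rpl30 had 10.97, 10.82 and 11.01 with mOSM, against 11.23, 11.21 and 11.09 in controls, so that the groups lay in the opposite order to those at 6 h. The change between the times was 0.51 ± 0.14 (adjusted p = 0.013, or 0.26 under median scaling). Over the 55 genes the median change was 0.17, against −0.08 over all genes. It was positive for 45 of 55, against 4782 of all 10739 genes. Under median scaling the medians were 0.1 and −0.2. Part of this change is the shift at 1 h, whose direction depends on the scaling. With the culture as a block Rpl7a (0.79 ± 0.30, adjusted p = 0.079, or 0.011), Rps15a (adjusted p = 0.27, or 0.0091, with no control array at either time and 1 mOSM array at 1 h above background) and Rps16 (0.43 ± 0.17, adjusted p = 0.094, or 0.04) passed too, making 4, against 30.4% of all genes. In control cultures 0 of 55 genes differed between 6 h and 1 h in either genotype (medians −0.03 in KO and 0.01 in WT), with 1 and 0 at an unadjusted p under 0.05, against 0.279% of all genes in KO and 0.428% in WT passing.

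Where a gene had more than 1 detected probe, the probes did not always give the same answer. All 19472 detected probes were fitted together, and 23.6% passed with mOSM in WT at 6 h. Of 17 such genes 1 passed by its brightest probe, with a median difference of 0.06, and of their 23 other detected probes 4 passed, all higher, with a median of 0.22. Rps24, a small subunit protein whose mRNA is known to be alternatively spliced, has 4 named probes, of which 3 were detected, designed on the RefSeq transcripts NM_011297 and NM_207634 and the cDNA AK052480. By the first, which stands for the gene above, Rps24 had 13.99, 13.96 and 13.98 on WT mOSM arrays, against 13.73, 14.07 and 13.95 on WT control arrays (0.06 ± 0.13, adjusted p = 0.8).

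By the second probe of Rps24 the arrays read 8.1, 8.44 and 8.23 with mOSM, against 6.95, 7.12 and 7.22 in WT controls. These groups lay far apart, by 1.16 ± 0.20 (2.24-fold, adjusted p = 5.1e-05). By the third they read 8.18, 8.78 and 8.07 with mOSM, against 6.96, 7.06 and 6.73 in WT controls (1.43 ± 0.30, 2.69-fold, adjusted p = 0.00046). In KO cultures the second probe read 7.47, 7.13 and 7.27 with mOSM, against 7.46, 7.22 and 7.11 in controls, and the difference of the effect between the genotypes was −1.13 ± 0.29 (adjusted p = 0.012). For the third probe that difference was −1.26 ± 0.42 (adjusted p = 0.064, or 0.0072 with the culture as a block). Both dimmer probes also passed between the times, with the mOSM effect in WT higher at 6 h by 1.13 ± 0.29 (adjusted p = 0.0088) and 1.81 ± 0.42 (adjusted p = 0.0041).

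A second probe of Rps13, of the small subunit, read 6.92, 7.13 and 6.6 with mOSM in WT, against 5.86, 5.96 and 6.28 in controls (0.85 ± 0.24, adjusted p = 0.008), while its brightest differed by 0.04 ± 0.12. A second probe of Rpl30 read 7.96, 8.08 and 7.94, against 7.17, 7.72 and 7.32 (0.59 ± 0.18, adjusted p = 0.012), in the direction of its brightest. A second probe of Rps19, a protein whose human gene is mutated in Diamond-Blackfan anaemia, read 6.92, 7.36 and 7.1, against 6.07, 6.47 and 5.84 (1.00 ± 0.44, adjusted p = 0.096, or 0.00019 with the culture as a block). The difference between the probes of a gene was not tested. Ribosomal protein genes have many processed copies in the mouse genome, probe sequences were not used here, and which transcripts or copies a probe reads is not known.

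**Figure D3:**
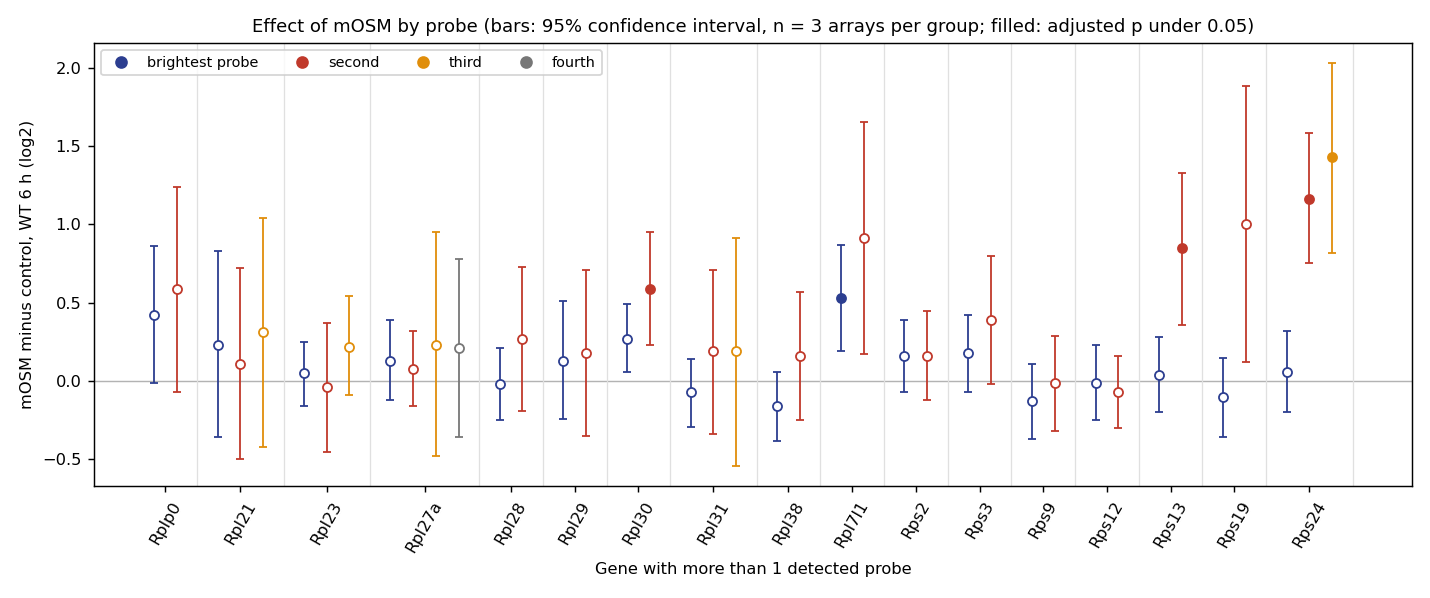
Difference between mOSM and control in WT cultures at 6 h on the log2 scale (y axis) for every detected probe of the 17 genes with more than 1, from the brightest probe of a gene (blue) to the dimmest. Bars are 95% confidence intervals (n = 3 arrays per group) and filled points have an adjusted p under 0.05 over all detected probes: the brightest probe of Rps24 lies at 0.06 and its other probes at 1.16 and 1.43.

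Between the genotypes no ribosomal protein gene passed. None of the 55 passed between all KO and all WT arrays with the culture as a random effect, against 1.86% of all genes (2 at an unadjusted p under 0.05, and 3 without the random effect), and the median difference was 0.01, with the intervals of 49 genes within 0.5 of 0. The range between the 6 culture means had a median of 0.19 over the 55 genes, against 0.52 over all genes, and exceeded 1 for 3 of them.

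Rps4l, a gene like Rps4x whose probe is annotated to a non-coding RefSeq record, was the most variable, and its spread lay in 1 culture. It read 6.55 to 7.43 on the 8 arrays of KO replicate 3, against 9.29 to 10.05 and 9.04 to 9.87 on those of KO replicates 1 and 2. On the 24 WT arrays it read 8.99 to 10, so that the other 2 KO cultures overlap the WT cultures. The mean of KO replicate 3 minus that of the other KO cultures was −2.71, which by size was rank 145 among 10739 genes. Between KO and WT the difference was −0.78 ± 0.36 (adjusted p = 0.39, exact two-sided permutation p = 0.7 over 3 against 3 cultures), and without KO replicate 3 it was 0.12.

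Rpl39l was also lowest in KO replicate 3, with 4.47 to 5.26, against 5.18 to 6.1 and 5.78 to 6.5 in the other KO cultures (KO against WT −0.62 ± 0.25, adjusted p = 0.26). Rps15a was highest there, with 6.02 to 7.14, against 4.82 to 5.88 and 4.98 to 5.87. That culture also differed in markers of other cells. The summed adipocyte markers were 825 to 1070 in KO replicate 3, against 10300 to 17400 and 13700 to 18400 in KO replicates 1 and 2, and the chondrocyte markers 33000 to 42700, against 16900 to 21100 and 19500 to 23600. Their part in the levels of Rps4l, Rpl39l and Rps15a was not tested.

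**Figure D4:**
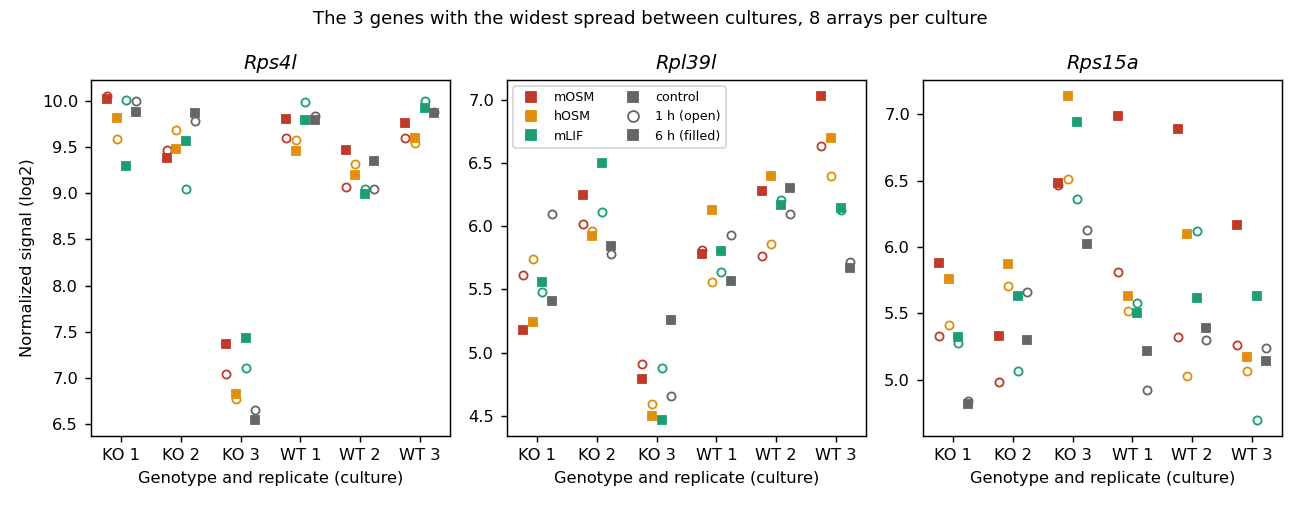
Normalized log2 signal (y axis) of Rps4l, Rpl39l and Rps15a on the 8 arrays of each of the 6 cultures (x axis), coloured by ligand and with open points for 1 h and filled points for 6 h. KO replicate 3 holds all Rps4l values under 8, from 6.55 to 7.43, and the highest range of Rps15a, 6.02 to 7.14.

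Of 52 genes listed for ribosome assembly and RNA polymerase I, 40 were tested, and most of these rose in the same arrays. This list and those below were chosen with earlier results of these data known. They also differ in signal: the ribosomal protein genes had a median of 13.25, and most assembly genes read lower. With mOSM in WT at 6 h, all genes with means of 6 to 8 had a median size of difference of 0.48. At 13 or above it was 0.2. The medians of the lists were not compared at matched signal. After 6 h of mOSM in WT, 35 of 40 genes for ribosome assembly and RNA polymerase I rose and 1 fell (Tsr1, a factor of small subunit maturation, −0.54), against 11.9% and 15.6% of all genes, with a median difference of 1.21, against 0.08 for the 55 ribosomal protein genes. Nop56, a core protein of the particles that methylate ribosomal RNA, had 10.91, 11.16 and 10.8 with mOSM, against 8.53, 8.83 and 8.87 in controls (2.21 ± 0.23, adjusted p = 3.4e-09). Grwd1, a chaperone of the large subunit protein Rpl3, rose by 2.14 ± 0.21 (adjusted p = 1.8e-09), Noc4l by 2.04 ± 0.23 and Rrp9, of the particle that cuts the precursor RNA, by 2.03 ± 0.24. In KO cultures 0 of the 40 passed with mOSM (median 0.09, 2 at an unadjusted p under 0.05). Over all 10739 genes 0% passed there too, with 201 at an unadjusted p under 0.05, so that the 0 is not particular to this list. The difference between the genotypes passed for 28 of the 40, all lower in KO, or 17 under median scaling, against 9.7% of all genes (464 lower).

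Of 31 translation factors 15 rose with mOSM in WT at 6 h and 0 fell (median 0.41), against 11.9% and 15.6% of all genes. Eif4e, which binds the cap of mRNAs and was above background on 3 mOSM and 2 control arrays, rose by 1.64 ± 0.39 (adjusted p = 0.0017). Eif6, which keeps the large subunit from joining too early, rose by 0.96 ± 0.16 and Pabpc1, the poly(A)-binding protein, by 0.92 ± 0.21 (adjusted p = 2.1e-05 and 0.0011). Of 6 other genes with TOP mRNAs or ribosome-bound products, 0 passed (median 0.23, 2 at an unadjusted p under 0.05 and 1 with the culture as a block), against 27.5% of all genes, 3967 genes at an unadjusted p under 0.05, and 45.2% with the block. Rpl36al is among these 6 genes. With so few genes these counts show nothing particular to the list.

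Of 18 regulators of ribosomal protein synthesis, 2 rose and 1 fell, a smaller share than the 27.5% of all genes. Myc had 7.55, 7.51 and 7.36 with mOSM, against 4.89, 4.94 and 5.8 in WT controls, of which 1 of 3 was above background, so that the size of the difference rests in part on values at background (2.26 ± 0.43, adjusted p = 1e-04). Larp1, which binds TOP mRNAs, rose by 1.24 ± 0.28 (adjusted p = 0.001), and Mxd4, an antagonist of Myc, fell by 1.1 (SE 0.17, adjusted p = 7.6e-06).

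**Figure D5:**
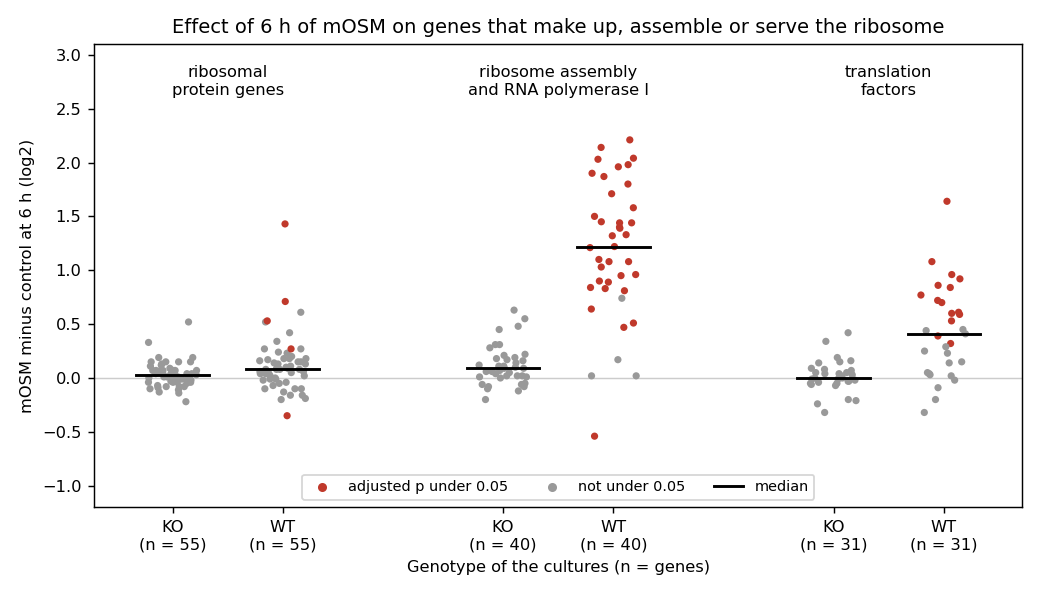
Difference between mOSM and control at 6 h on the log2 scale (y axis) in KO and WT cultures (x axis) for 55 ribosomal protein genes, 40 genes for ribosome assembly and RNA polymerase I and 31 translation factors. Each point is a gene, red where the adjusted p is under 0.05, and bars are medians: in WT 0.08, 1.21 and 0.41, and in KO 0.03, 0.09 and 0. The lists differ in probe signal.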

How the data were processed

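The linear bead intensities and the detection p-value of each probe come from a signal file that the authors deposited without normalization; they name BeadStudio and limma in the submitters' processing notes without versions. A second table of log2 values normalized by the authors was used as an alternative and differed from the values here by at most 0.03376. Signals were corrected with limma's neqc (offset 16, with the negative controls derived from the detection p-values), which also applies quantile normalization and takes log2. Gene symbols came from the platform annotation. The 16799 named probes detected (p under 0.01) on 3 or more arrays were kept and the brightest used per gene.

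A model of 16 group means was fitted to all 10739 genes with limma 3.58.1 in R 4.3.3 (32 residual degrees of freedom), and p-values were adjusted over all genes of a comparison (Benjamini-Hochberg), with values under 0.05 passing. KO against WT used the culture as a random effect (correlation 0.427). Within a genotype, residuals of arrays sharing a replicate number correlated by 0.659 on average (lowest 0.302), so that the numbers pair arrays within a genotype, and across genotypes by −0.001. For the ribosomal protein genes alone the average within a genotype was 0.489 and the lowest −0.303. The fits were tested on simulated data. Promoter shares were counted in Python 3.11.15 and figures drawn with matplotlib 3.10.9.

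The members and the other lists were chosen with earlier results of these data known. Named are a set panel, the members with the largest change past the threshold in each comparison, the brightest, the dimmest and the most variable members, and up to 4 genes of each other list. Outside these rules, Rpl39, Rps16, Rps13 and Rps24 are also named, and Rps12 and Rpl9 by their promoter windows. Rpl21, among the dimmest, is not described. Panel genes without a detected named probe are Rps27, Rpl5, Rpl11 and Rpl10l (no named probe), Rpl3l and Rpsa. Alternatives were the culture block, no background correction, median scaling, the deposited log2 table, no detection filter, the mean of all detected probes, the beadchip as a block, the compared groups alone, and leaving out arrays or whole cultures. The number of arrays limits the precision.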

Additional observations from a re-analysis of the deposited data

Results flagged for a closer look

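Differences of the mOSM effect between genotypes or times, tested in the model of all groups with limma's adjusted p, were set apart as follows. Rpl30 was the ribosomal protein gene whose mOSM effect in WT differed between the times (0.51, 6 h minus 1 h, adjusted p = 0.013), as did its second probe (0.76, adjusted p = 0.044). The second probe of Rps24 differed between genotypes (−1.13, KO minus WT at 6 h, adjusted p = 0.012) and between times (1.13, adjusted p = 0.0088), and the third between times (1.81, adjusted p = 0.0041).

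Among genes of the other lists, the mOSM effect at 6 h was lower in KO than in WT for Nop56 (−2.19), Grwd1 (−2.19), Rrp9 (−1.97), Noc4l (−1.94), Eif4e (−1.85), Eif6 (−0.89), Myc (−2.38) and Larp1 (−1.24). Myc was above background on none of the KO mOSM and KO control arrays and on 1 of 3 WT control arrays, so that its value is no exact difference, and Eif4e on 2 KO mOSM and 2 WT control arrays of 3. It was higher in KO for Mxd4 (0.98). In WT the effect was higher at 6 h than at 1 h for Rrp9 (2.26), Grwd1 (2.17), Nop56 (1.93), Noc4l (1.07), Eif4e (1.86), Pabpc1 (1.32), Eif1a (0.92), Eif6 (0.85) and Larp1 (1.65), and lower for Mxd4 (−0.91). Groups of 3 arrays were not searched for single outlying arrays.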

How the results depend on the processing

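With the culture as a replicate block, the number of ribosomal protein genes passing was 7 for mOSM in WT at 6 h (main 5), 1 for hOSM in KO at 6 h (main 0), 3 for KO minus WT (main 0), 3 against hOSM and 5 against mLIF (main 1 and 1) and 4 between the times (main 1). With no replicate block, 3 passed between KO and WT (main 0). Under median scaling 1 passed with mOSM in WT at 6 h, and 0 against hOSM, against mLIF and between the times. With the beadchip as a block these were 2 with mOSM and 0 against hOSM, and in the compared groups alone 3 with mOSM and 2 against mLIF. Without background correction 1 passed for KO minus WT and 2 against hOSM, and the mean of all detected probes gave 2, 4 against hOSM, 5 against mLIF and 2 between the times. The deposited log2 table and no detection filter moved none of the 42 counts. The counts of assembly genes (36) and translation factors (15) with mOSM in WT at 6 h kept within 1.5 times in all alternatives run, while 17 assembly genes in place of 28 differed between genotypes under median scaling.

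Leaving out single arrays or whole cultures gave 0 to 4 genes with mOSM in WT at 6 h, 0 to 2 for KO minus WT, 0 to 1 against hOSM, 0 to 0 against mLIF, 0 to 2 between the times and 15 to 30 assembly genes for KO minus WT (16 without WT replicate 1, 15 without WT replicate 2 and 17 without KO replicate 1, each as a whole culture). Without any whole WT culture, the calls of Rpl30, Rpl7l1 and Rps4x ended, that of Rpl7a ended without WT replicate 2 or 3 (0.67 and 0.69), and that of Rps15a without WT replicate 1 or 2 (fitted values 1.26 and 1.4, against controls at background). Single mOSM arrays that ended calls were replicate 2 for Rpl7a (0.6), replicates 1 and 2 for Rps15a (1.28 and 1.33), 2 and 3 for Rps4x (−0.36 and −0.31) and any for Rpl30 (0.26 to 0.28). Single control arrays did so for Rpl7l1 (replicate 1, 0.49), Rps4x (1 and 2, −0.3 and −0.35) and Rpl30 (1 and 3, 0.22 and 0.29). Without control replicate 1 Rpl13a passed (0.49). The calls against hOSM and mLIF ended without any single compared array or whole WT culture (0.46 to 0.51 for Rpl7l1 and 0.4 to 0.49 for Rpl13a). The change of Rpl30 between times ended without any whole WT culture (0.45 to 0.6). Every one of these differences kept its sign. Reversed were Rps4l between KO and WT without KO replicate 3 (0.12), and the brightest probe of Rps24, which was never called, with the beadchip as a block (0 and 0.05) and without single arrays (−0.04 to 0.14 with mOSM in WT and −0.15 to 0.03 for KO minus WT) or whole cultures (−0.04 to 0.15, and −0.15 to 0.06 with 0.04 without WT replicate 1). The rises of the second probe and the third probe of Rps24 in WT passed in every alternative run, and the genotype difference of the second ended under median scaling (−1.01) and without whole KO replicate 1 or 2 or WT replicate 1 or 2 (−1.21 to −1.05 over all 6 cultures). That of the third probe passed without background correction and without KO mOSM replicate 2, KO control replicate 3 or the whole KO replicate 3 (−1.64 to −0.89 over all left-out arrays and cultures). The second probe of Rps13 lost its call under median scaling, without mOSM replicate 2 and without whole WT replicate 1 or 2 (0.69 to 1.11), and that of Rpl30 under median scaling, without control replicate 1, mOSM replicate 2 and whole WT replicate 1 or 3 (0.48 to 0.75). Median scaling moved the median of all genes by more than 0.1 in 15 comparisons, at most by 0.3. The cause of these changes was not tested.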
